A study of Homo sapiens with 6 samples.

Results

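Cholesterol synthesis, its control by the SREBP transcription factors and intracellular sterol transport were followed through 30 genes in HK2, a human line derived from proximal tubule cells of the kidney and immortalised with papillomavirus genes. The genes were listed by symbol from these pathways, and stood against 25808 genes in the deposited RNA-seq table. NSDHL, which acts in sterol demethylation, was not analysed here, and 29 genes had values. The 3 TBOEP libraries came from confluent HK2 cells kept for 48 hours with 20 µM tris(2-butoxyethyl) phosphate, a plasticiser and flame retardant of the organophosphate class. The other 3 libraries came from HK2 cells given the solvent DMSO, at a dose and for a time not stated in the labels. Both groups are the same cell line with no other agent or genetic change named in the labels. The labels do not say whether the libraries of a group came from separate cultures, so the spread behind each p-value is that among these libraries and could be technical alone.

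Cells build cholesterol from acetyl-CoA by the mevalonate pathway, which leads to squalene, and by a chain of enzymes of the endoplasmic reticulum that close and trim the sterol rings. When sterols in that membrane are low, the escort protein SCAP carries the SREBP precursors to the Golgi, where they are cut into active transcription factors. When sterols are ample, INSIG proteins hold SCAP back, and surplus cholesterol is esterified, moved between membranes or exported. Proximal tubule cells make cholesterol themselves and also take it up with filtered and circulating lipoproteins.

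Values are FPKM, fragments counted on a gene scaled to a length given to that gene and to the size of the library. The length implied by the values often differed from that of the longest coding transcript. It was 9018 against 2747 bases in MVK, 4784 against 1190 in HSD17B7 and 2639 against 3180 in ACAT2. Levels of different genes are therefore not strictly per transcript. Library totals recovered from the FPKM steps were 35838657, 34890085 and 32547856 reads in TBOEP replicates 1 to 3, and 38247579, 33536445 and 36093609 reads in DMSO replicates 1 to 3. A single read on a gene with a length of 1 kb then adds between 0.0262 and 0.0307 FPKM. Of 18 proximal tubule markers 14 had values, and only 4 of those, PAX8 and MIOX among them, reached 1 FPKM in any library, while 8 stayed at or below 0.3 FPKM in every library, among them HNF4A, CUBN, SLC34A1 and AQP1. The summed proximal tubule markers spanned 63.4 to 69.9 FPKM in TBOEP libraries and 67.8 to 70.2 FPKM in DMSO libraries. Summed epithelial markers, mostly KRT8 and KRT18, spanned 395 to 402 FPKM in TBOEP and 442 to 450 FPKM in DMSO libraries, with CDH1 at or near 0. The lower sum in TBOEP came from KRT8, at means of 273 FPKM in TBOEP and 338 FPKM in DMSO. KRT18 (110 and 94.8 FPKM) and EPCAM (14.6 and 12.9 FPKM) had higher means in TBOEP. Of the fibroblast markers COL1A1 alone reached 1 FPKM, and the list summed to 22.3 to 22.5 FPKM in TBOEP and 26.0 to 29.1 FPKM in DMSO libraries. The endothelial, leukocyte, podocyte and distal nephron markers with values stayed at or below 0.3 FPKM. The part of these shifts in the results was not tested.

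Sterol gene mRNAs did not move one way after TBOEP. ACAT2, at the entry to the mevalonate pathway, was nearly 3 times as abundant in TBOEP as in DMSO libraries, and HSD17B7, MSMO1, INSIG1, SQLE, INSIG2, FDPS, IDI1 and SOAT1 were also higher. PMVK, MVD, LSS, SCAP and MVK were lower. SREBF1 and SREBF2, which encode the SREBP factors, did not pass the test. Tests were made with limma on log2(FPKM + 1) over the 9631 genes with at least 1 FPKM in 3 or more of the 6 libraries, with Benjamini-Hochberg adjustment and a threshold of 0.05, and fold changes below are on that scale, on which changes of low genes come out too small. Of the 30 genes 26 were tested, and 9 were called higher (34.6%) and 5 lower (19.2%), with 12 not called. Over all 9631 tested genes 26.9% were called higher and 26.9% lower, so that calls in either direction were common in these libraries. Leaving out HSD17B7, which passed the filter through its TBOEP libraries alone, 8 of 25 were called higher (32%) and 5 lower (20%). The median log2 fold change was 0.03 over the 26 sterol genes and -0.02 over all tested genes. TBOEP values lay wholly above or wholly below DMSO values in 15 of the 26, against 62.3% of all tested genes. When each library was centred on its median, 2115 of all 9631 tested genes were called higher and 3370 lower, against 2592 and 2586 without centring. Of the called genes 38.6% were then higher, against 50.1% without centring. Of the 26 sterol genes 8 were called higher and 7 lower with centring. Without the filter, over 25808 genes, the calls of MVK, LSS and SOAT1 ended (limma adjusted p = 0.0982, 0.122 and 0.124). In bulk RNA, fewer cells of a kind and less RNA per cell cannot be told apart.

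**Figure D1:**
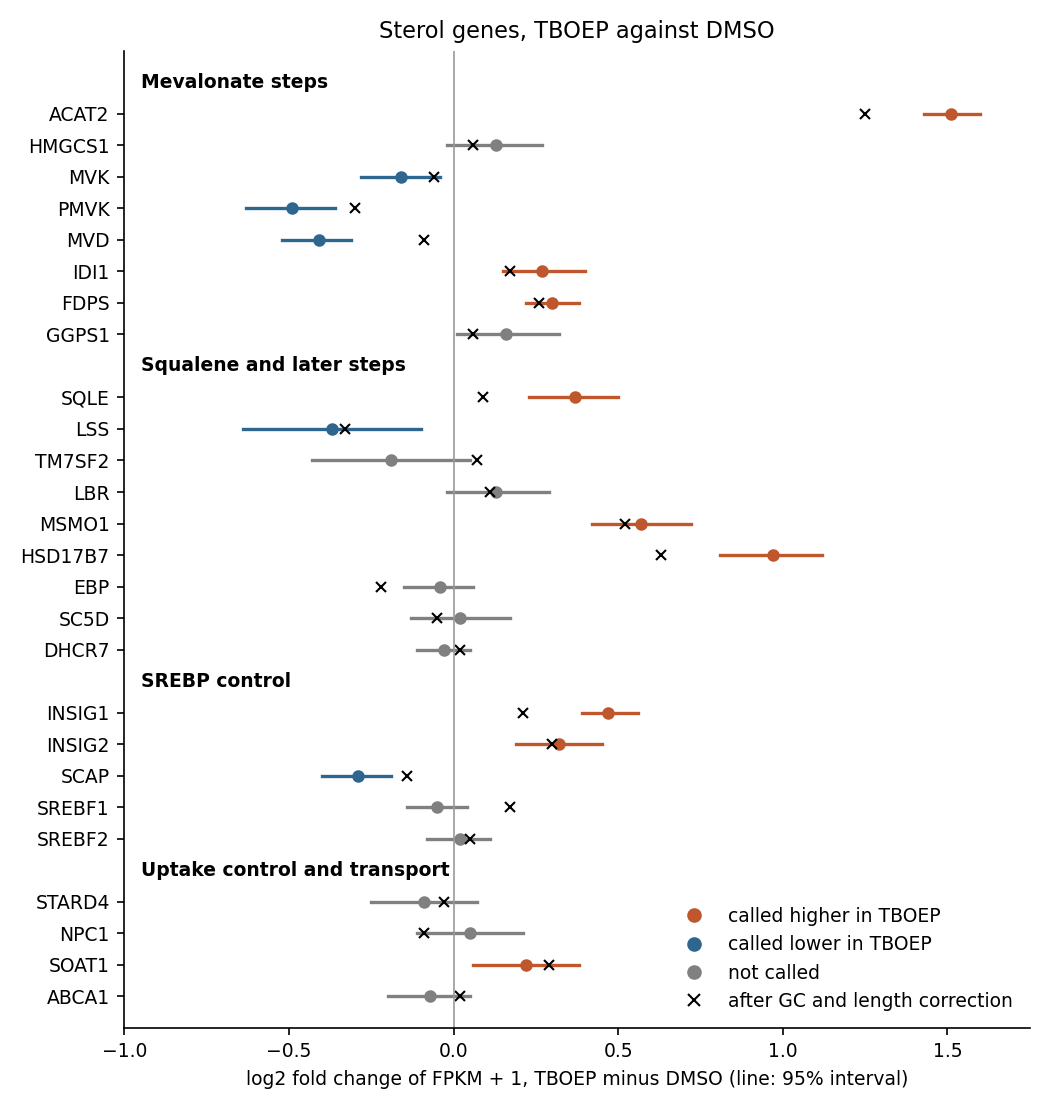
Each row is 1 of the 26 tested sterol genes and the horizontal axis is the log2 fold change of FPKM + 1, TBOEP minus DMSO. Points are limma estimates with their 95% intervals, coloured by call, and crosses are the estimates after correction for GC content and transcript length. ACAT2 at 1.51 and HSD17B7 at 0.97 stand to the right of the other genes, and PMVK at -0.49 lies farthest to the left.

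Promoters are shown because the SREBP factors act there, at sterol response elements helped by neighbouring CCAAT and GC boxes, and because the genes moved in both directions. The windows are the 250 bases before the RefSeq start on GRCh38.p14, written 5′ to 3′ on the gene's strand, with CCAAT on either strand (CCAAT or ATTGG) and the sterol response element TCACNCCAC in capitals. MSMO1 (chr4:165327419-165327668, plus strand) and INSIG1 (chr7:155297628-155297877, plus strand) were called higher. PMVK (chr1:154936720-154936969, minus strand) and MVD (chr16:88663092-88663341, minus strand) were called lower. SREBF2 (chr22:41832855-41833104, plus strand) was not called and held the element.
MSMO1: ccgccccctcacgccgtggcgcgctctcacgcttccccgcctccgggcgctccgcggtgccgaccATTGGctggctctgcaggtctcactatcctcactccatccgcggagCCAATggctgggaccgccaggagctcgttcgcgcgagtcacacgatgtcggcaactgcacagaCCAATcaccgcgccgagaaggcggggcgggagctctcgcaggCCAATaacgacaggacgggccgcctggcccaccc
INSIG1: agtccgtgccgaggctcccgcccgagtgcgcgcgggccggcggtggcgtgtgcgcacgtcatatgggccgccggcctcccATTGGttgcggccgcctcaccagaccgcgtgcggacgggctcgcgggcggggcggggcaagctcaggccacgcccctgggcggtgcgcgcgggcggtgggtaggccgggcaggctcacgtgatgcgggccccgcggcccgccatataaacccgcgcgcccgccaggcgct
PMVK: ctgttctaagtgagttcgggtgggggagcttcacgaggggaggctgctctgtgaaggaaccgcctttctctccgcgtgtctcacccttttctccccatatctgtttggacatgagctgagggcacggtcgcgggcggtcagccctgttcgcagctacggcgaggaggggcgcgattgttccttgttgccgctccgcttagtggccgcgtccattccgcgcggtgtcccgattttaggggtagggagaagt
MVD: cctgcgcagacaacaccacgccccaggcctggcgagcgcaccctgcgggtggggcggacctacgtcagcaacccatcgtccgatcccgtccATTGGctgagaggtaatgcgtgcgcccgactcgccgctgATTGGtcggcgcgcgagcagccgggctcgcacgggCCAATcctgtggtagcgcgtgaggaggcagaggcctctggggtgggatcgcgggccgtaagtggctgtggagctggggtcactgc
SREBF2: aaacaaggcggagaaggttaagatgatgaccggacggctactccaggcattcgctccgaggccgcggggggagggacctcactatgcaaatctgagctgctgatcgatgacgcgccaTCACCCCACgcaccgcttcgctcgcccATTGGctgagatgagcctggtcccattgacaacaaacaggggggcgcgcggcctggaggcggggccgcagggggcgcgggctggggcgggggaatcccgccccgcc

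CCAAT matched 4 times in the MSMO1 window, 3 times in MVD, once each in INSIG1 and SREBF2, and not in PMVK. Of the 30 genes 26 had a RefSeq promoter entry, with 34 windows among them. CCAAT was in a window of 18 of these 26 genes, or 20 of 34 windows, and in 32% of all 34796 promoter windows. It was held by 6 of the 7 genes called higher that had an entry, by 3 of 5 called lower and by 8 of 12 not called, so it was present on both sides of the comparison. HSD17B7, which passed the filter through its TBOEP libraries alone, was among those 6. The GC box GGGCGG, searched on both strands, was in a window of 25 of 26 genes and in 42.6% of all windows. TCACNCCAC was found in the SREBF2 window alone, and in 0.882% of all windows. No member window held the direct repeat of 4 bound by LXR, present in 0.0144% of all windows. No letter of one motif was shared with another in the printed windows. A match describes the letters and shows no binding, and the absence of these letters in 250 bases says nothing about the factors.

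Among the mevalonate enzymes ACAT2, IDI1 and FDPS rose and MVK, PMVK and MVD fell, while HMGCS1 and GGPS1 did not pass the test. The 8 genes thus had 3 calls in each direction (37.5% each) and a median log2 fold change of 0.15. Over all tested genes 26.9% were called in each direction, with a median of -0.02. After correction for GC content and length the calls of MVK, MVD and IDI1 ended. ACAT2 (ENSG00000120437, chromosome 6), the cytosolic thiolase that joins acetyl-CoA units to acetoacetyl-CoA, measured 65.6, 63.9 and 63.7 FPKM in TBOEP and 21.0, 21.8 and 22.9 FPKM in DMSO libraries. The lowest TBOEP library lay far above the highest DMSO library. Mean ACAT2 was 64.4 ± 0.992 FPKM in TBOEP and 21.9 ± 0.91 FPKM in DMSO (SD, n = 3 each), a ratio of 2.94 and a log2 fold change of 1.51 ± 0.04 (SE; limma adjusted p = 2.83e-08), from 1930 to 6200 reads per library. On the opposite strand a transcript at or below 0.25 FPKM in every library shares 33.9% of ACAT2 exon bases in GENCODE 29. Also on that strand TCP1, a chaperonin subunit, shares 397 bases with ACAT2 exons, or 9.23% of them, and counts may mix these genes because use of strand is not stated. TCP1, named here after its values were seen, measured 36.9, 35.7 and 36.7 FPKM in TBOEP and 33.4, 32.8 and 33.0 FPKM in DMSO libraries, a log2 fold change of 0.14 ± 0.03 (limma adjusted p = 0.00539), and -0.07 after correction for GC content and length.

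HMGCS1, which condenses acetoacetyl-CoA with a further acetyl-CoA to HMG-CoA, measured 4.07, 3.74 and 3.5 FPKM in TBOEP and 3.45, 3.48 and 3.15 FPKM in DMSO libraries. The groups did not overlap, by a narrow margin, and the log2 fold change of 0.13 had a 95% interval from -0.02 to 0.27 (limma adjusted p = 0.119). The kinases and the decarboxylase that follow were all lower in TBOEP. MVK, which phosphorylates mevalonate, measured 5.01, 5.63 and 5.42 FPKM in TBOEP and 5.91, 6.16 and 6.18 FPKM in DMSO libraries, and its log2 fold change was -0.16 ± 0.05 (SE; limma adjusted p = 0.0326). This call ended in 4 of the 6 fits that left out a library, with adjusted p of 0.112 without TBOEP replicate 1, 0.0588 without TBOEP replicate 3, 0.08 without DMSO replicate 2 and 0.0822 without DMSO replicate 3. It also ended after correction for GC content and length, at -0.06 (adjusted p = 0.383). On the opposite strand MMAB, named here after its values were seen, shares 4.72% of MVK exon bases. MMAB had a log2 fold change of -0.23 ± 0.04 (limma adjusted p = 0.00183), and counts may mix the 2 genes because use of strand is not stated. PMVK, the next kinase, measured 35.5, 31.4 and 33.5 FPKM in TBOEP and 46.7, 51.1 and 44.8 FPKM in DMSO libraries. All 3 TBOEP libraries lay below all 3 DMSO libraries, and PMVK fell by 0.49 ± 0.06 on the log2 scale (limma adjusted p = 1.71e-04). After correction for GC content and length the PMVK log2 fold change was -0.30 (adjusted p = 0.00294).

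MVD, whose decarboxylation yields the isoprene unit isopentenyl pyrophosphate, measured 20.9, 22.4 and 22.7 FPKM in TBOEP and 30.6, 30 and 28.2 FPKM in DMSO libraries. The groups were well apart, at a log2 fold change of -0.41 ± 0.05 (SE; limma adjusted p = 8.36e-05), but the correction for GC content and length left -0.09 (adjusted p = 0.0792). IDI1, which isomerises that unit, measured 8.4, 8.24 and 8.39 FPKM in TBOEP and 7.0, 7.05 and 6.19 FPKM in DMSO libraries. IDI1 rose by 0.27 ± 0.05 (limma adjusted p = 0.00278), and by 0.17 after the correction (adjusted p = 0.0552). FDPS, which builds farnesyl pyrophosphate, measured 35.0, 34.0 and 35.1 FPKM in TBOEP and 29.1, 27.6 and 27.2 FPKM in DMSO libraries. FDPS rose by 0.30 ± 0.04 (limma adjusted p = 1.34e-04), with little change under the correction at 0.26. GGPS1 leads off the sterol path to geranylgeranyl pyrophosphate, the lipid used to prenylate proteins. It measured 1.57, 1.81 and 1.88 FPKM in TBOEP and 1.55, 1.4 and 1.41 FPKM in DMSO libraries, without overlap, and its log2 fold change of 0.16 had a 95% interval from 0.01 to 0.32 (limma adjusted p = 0.0699). Without TBOEP replicate 1 its adjusted p was 0.0395. GGPS1 shares 37.3% of its exon bases with TBCE on the same strand, so its reads are less certain.

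**Figure D2:**
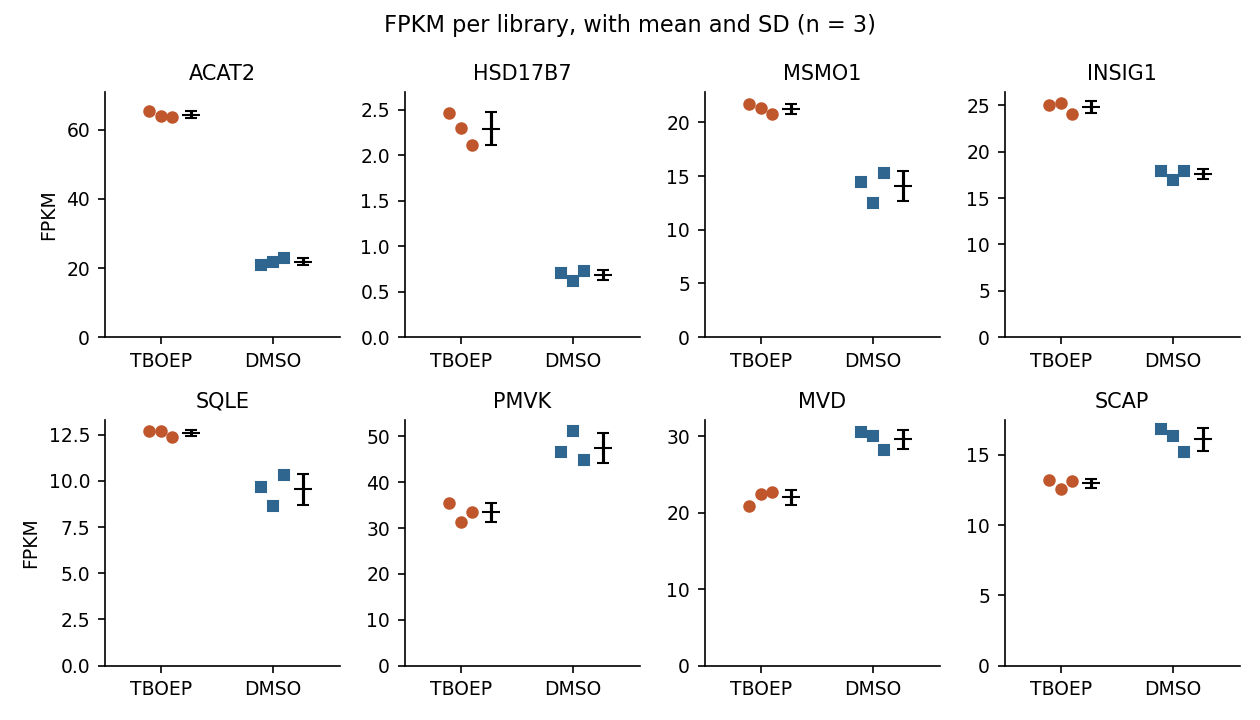
Panels plot FPKM on linear axes from 0 for 8 sterol genes, with 1 point per library (TBOEP circles on the left, DMSO squares on the right) and bars for the mean and SD of 3 libraries. In ACAT2, HSD17B7, MSMO1, INSIG1 and SQLE every TBOEP point lies above every DMSO point, and in PMVK, MVD and SCAP every TBOEP point lies below.

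From squalene onward the picture was again mixed. Of 12 genes 9 were tested, with a median log2 fold change of 0.02. SQLE, MSMO1 and HSD17B7 rose (33.3%), LSS fell (11.1%) and 5 did not pass the test. Over all tested genes 26.9% were called in each direction. HSD17B7 passed the filter through its TBOEP libraries alone. FDFT1, squalene synthase, was under the filter, at 0.203, 0.152 and 0.181 FPKM in TBOEP and 0.0618, 0.0646 and 0.0709 FPKM in DMSO libraries. These values rest on 37, 27 and 30 reads in TBOEP and 12, 11 and 13 reads in DMSO libraries. The groups did not overlap, and in the fit without the filter, over 25808 genes, the log2 fold change of FDFT1 was 0.15 ± 0.04 (limma adjusted p = 0.0771). SQLE, the monooxygenase that epoxidises squalene, measured 12.7, 12.7 and 12.4 FPKM in TBOEP and 9.69, 8.63 and 10.3 FPKM in DMSO libraries. SQLE rose by 0.37 ± 0.06 (SE) in log2 units (limma adjusted p = 9.31e-04), and after correction for GC content and length its log2 fold change was 0.09 (adjusted p = 0.177).

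LSS, which closes the sterol rings to form lanosterol, measured 1.52, 1.77 and 1.64 FPKM in TBOEP and 2.15, 3.17 and 2.05 FPKM in DMSO libraries. The groups did not overlap, and DMSO replicate 2 stood above the other libraries. LSS fell by 0.37 ± 0.12 (SE) in log2 units (limma adjusted p = 0.0268), and by 0.23 without DMSO replicate 2 (adjusted p = 0.0307). The LSS call ended without TBOEP replicate 1 (adjusted p = 0.0832) and without TBOEP replicate 3 (adjusted p = 0.0691). CYP51A1, the demethylase that acts on lanosterol, was under the filter at 0.763, 0.763 and 0.899 FPKM in TBOEP and 0.671, 0.579 and 0.618 FPKM in DMSO libraries. In GENCODE 29 it shares 79.4% of its exon bases with another gene on the same strand, ENSG00000285772, which was not analysed here. How shared reads were counted is not known. The CYP51A1 values may therefore hold reads of that gene or lack reads of CYP51A1. TM7SF2 and LBR encode sterol reductases that act on the same double bond, and LBR also tethers chromatin at the nuclear envelope. TM7SF2 measured 1.6, 1.45 and 2.09 FPKM in TBOEP and 1.74, 2.33 and 2.18 FPKM in DMSO libraries, with overlap, and a log2 fold change of -0.19 (95% interval from -0.43 to 0.05; limma adjusted p = 0.167). Without TBOEP replicate 3 it was -0.28 (adjusted p = 0.0423). LBR measured 9.02, 9.0 and 7.87 FPKM in TBOEP and 7.72, 7.24 and 8.37 FPKM in DMSO libraries, with overlap, and a log2 fold change of 0.13 (95% interval from -0.02 to 0.29; limma adjusted p = 0.125). Its adjusted p was 0.0397 without TBOEP replicate 3.

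MSMO1, the monooxygenase that strips methyl groups from the ring, measured 21.7, 21.3 and 20.8 FPKM in TBOEP and 14.4, 12.5 and 15.3 FPKM in DMSO libraries. Every TBOEP library exceeded every DMSO library. Mean MSMO1 was 21.3 ± 0.457 FPKM in TBOEP and 14.0 ± 1.44 FPKM in DMSO (SD, n = 3 each), a log2 fold change of 0.57 ± 0.07 (SE; limma adjusted p = 1.23e-04) and 0.52 after correction for GC content and length (adjusted p = 7.35e-05). HSD17B7, the keto reductase of the same demethylation complex and also an enzyme of sex steroid metabolism, measured 2.47, 2.3 and 2.11 FPKM in TBOEP and 0.71, 0.623 and 0.724 FPKM in DMSO libraries. The groups were far apart, with a ratio of mean FPKM of 3.34. HSD17B7 passed the filter through its TBOEP libraries alone, so it had to differ to be tested there. Its p is therefore given from the fit without the filter, over 25808 genes, where its log2 fold change was 0.97 (limma adjusted p = 2.83e-04). The log2 fold change was 1.74 with limma-voom on recovered reads, 1.61 with a pseudocount of 0.1 and 0.63 after correction for GC content and length. Its counts, 423, 384 and 329 reads in TBOEP and 130, 100 and 125 reads in DMSO libraries, are uncertain for another reason. Of all 50-base windows of its transcript 51.1% occur letter for letter in transcripts of other genes, and 50.5% occur in HSD17B7P2, a pseudogene that was not analysed here. Of the 29 genes with values 20 had no such shared window, 6 had under 3%, and HSD17B7, CYP51A1 and GGPS1 had more.

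EBP, SC5D and DHCR7, which act late in the path, did not pass the test. EBP, the sterol isomerase, measured 44.0, 42.5 and 46.2 FPKM in TBOEP and 48.0, 45.5 and 43.5 FPKM in DMSO libraries, with overlap. Its log2 fold change was -0.04 (95% interval from -0.15 to 0.06; limma adjusted p = 0.422), and -0.22 after correction for GC content and length, where it passed the test (adjusted p = 0.0032). SC5D, a sterol desaturase, measured 1.3, 1.15 and 1.06 FPKM in TBOEP and 1.1, 1.15 and 1.16 FPKM in DMSO libraries, with overlap and a log2 fold change of 0.02 (95% interval from -0.13 to 0.17; limma adjusted p = 0.828). DHCR7, the reductase that yields cholesterol from its direct precursor, measured 23.5, 23.1 and 22.3 FPKM in TBOEP and 23.6, 23.4 and 23.5 FPKM in DMSO libraries. The groups overlapped, and the DHCR7 log2 fold change of -0.03 had a 95% interval from -0.11 to 0.05 (limma adjusted p = 0.47), the narrowest of the 3. With median centring DHCR7 passed the test at -0.09 (adjusted p = 0.0465).

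Of the 5 control genes, the INSIG pair rose (40%) and SCAP fell (20%), and neither SREBP gene passed the test. The share of all tested genes called was 26.9% in each direction. INSIG1 (ENSG00000186480, chromosome 7), the sterol-dependent retention factor that is itself a transcriptional target of SREBP, measured 25.0, 25.3 and 24.1 FPKM in TBOEP and 17.9, 17.0 and 17.9 FPKM in DMSO libraries. The groups were clearly apart, at 24.8 ± 0.639 FPKM in TBOEP and 17.6 ± 0.547 FPKM in DMSO (SD, n = 3 each). INSIG1 rose by 0.47 ± 0.04 (SE) in log2 units (limma adjusted p = 1.57e-05), and by 0.21 after correction for GC content and length (adjusted p = 9.61e-04). INSIG2, the second retention factor, measured 5.98, 5.55 and 5.95 FPKM in TBOEP and 4.57, 4.15 and 4.72 FPKM in DMSO libraries. It rose by 0.32 ± 0.06 (limma adjusted p = 0.00168), and by 0.30 after the correction. SCAP, the escort that INSIG proteins retain, measured 13.2, 12.6 and 13.1 FPKM in TBOEP and 16.8, 16.3 and 15.2 FPKM in DMSO libraries. All TBOEP libraries were below all DMSO libraries, and SCAP fell by 0.29 ± 0.05 (limma adjusted p = 7.28e-04), and by 0.14 after the correction (adjusted p = 0.0219).

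SREBF2, whose product mainly drives cholesterol genes, measured 31.2, 30.7 and 29.5 FPKM in TBOEP and 30.7, 31.2 and 28.6 FPKM in DMSO libraries. The groups overlapped, and its log2 fold change of 0.02 had a 95% interval from -0.08 to 0.11 (limma adjusted p = 0.782). SREBF1, whose products mainly drive fatty acid synthesis, measured 9.65, 9.72 and 9.99 FPKM in TBOEP and 10.1, 10.4 and 9.97 FPKM in DMSO libraries. The groups overlapped there too, and the SREBF1 log2 fold change of -0.05 had a 95% interval from -0.14 to 0.04 (limma adjusted p = 0.334). Its sign depended on the processing. It was 0.17 after correction for GC content and length (adjusted p = 0.00683) and -0.11 with median centring (adjusted p = 0.0484).

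Among the 5 genes of uptake control and transport SOAT1 alone passed the test, with 4 tested and a median log2 fold change of -0.01. It made 25% of these called higher, against 26.9% of all tested genes. SOAT1, which esterifies surplus cholesterol for storage, measured 9.5, 9.44 and 7.99 FPKM in TBOEP and 7.22, 7.3 and 8.08 FPKM in DMSO libraries. TBOEP replicate 3 lay below DMSO replicate 3, so the groups overlapped. SOAT1 rose by 0.22 ± 0.07 (SE) in log2 units (limma adjusted p = 0.0268). The call ended without TBOEP replicate 1 (adjusted p = 0.0903), TBOEP replicate 2 (0.0842), DMSO replicate 1 (0.0805) or DMSO replicate 2 (0.0739), and with quantile normalization (0.0759) or median centring (0.0734).

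MYLIP, a ubiquitin ligase that sends lipoprotein receptors to degradation, was under the filter at 0.354, 0.466 and 0.49 FPKM in TBOEP and 0.247, 0.33 and 0.496 FPKM in DMSO libraries, with overlap, from 29 to 55 reads per library. STARD4, a soluble carrier of cholesterol between membranes, measured 1.91, 1.82 and 1.53 FPKM in TBOEP and 1.99, 1.85 and 1.96 FPKM in DMSO libraries, with a log2 fold change of -0.09 (95% interval from -0.25 to 0.07; limma adjusted p = 0.286). NPC1, the membrane protein that exports cholesterol from lysosomes, measured 8.63, 7.16 and 7.46 FPKM in TBOEP and 7.23, 7.22 and 7.89 FPKM in DMSO libraries, with a log2 fold change of 0.05 (95% interval from -0.11 to 0.21; limma adjusted p = 0.577). In both genes the libraries of the groups overlapped. ABCA1, the pump that exports cholesterol to lipid-poor apolipoproteins and an LXR target, measured 2.4, 2.27 and 2.23 FPKM in TBOEP and 2.44, 2.58 and 2.4 FPKM in DMSO libraries. The groups met at 2.4 FPKM. The ABCA1 log2 fold change was -0.07 (95% interval from -0.20 to 0.05; limma adjusted p = 0.298), and 0.02 after correction for GC content and length.

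**Figure D3:**
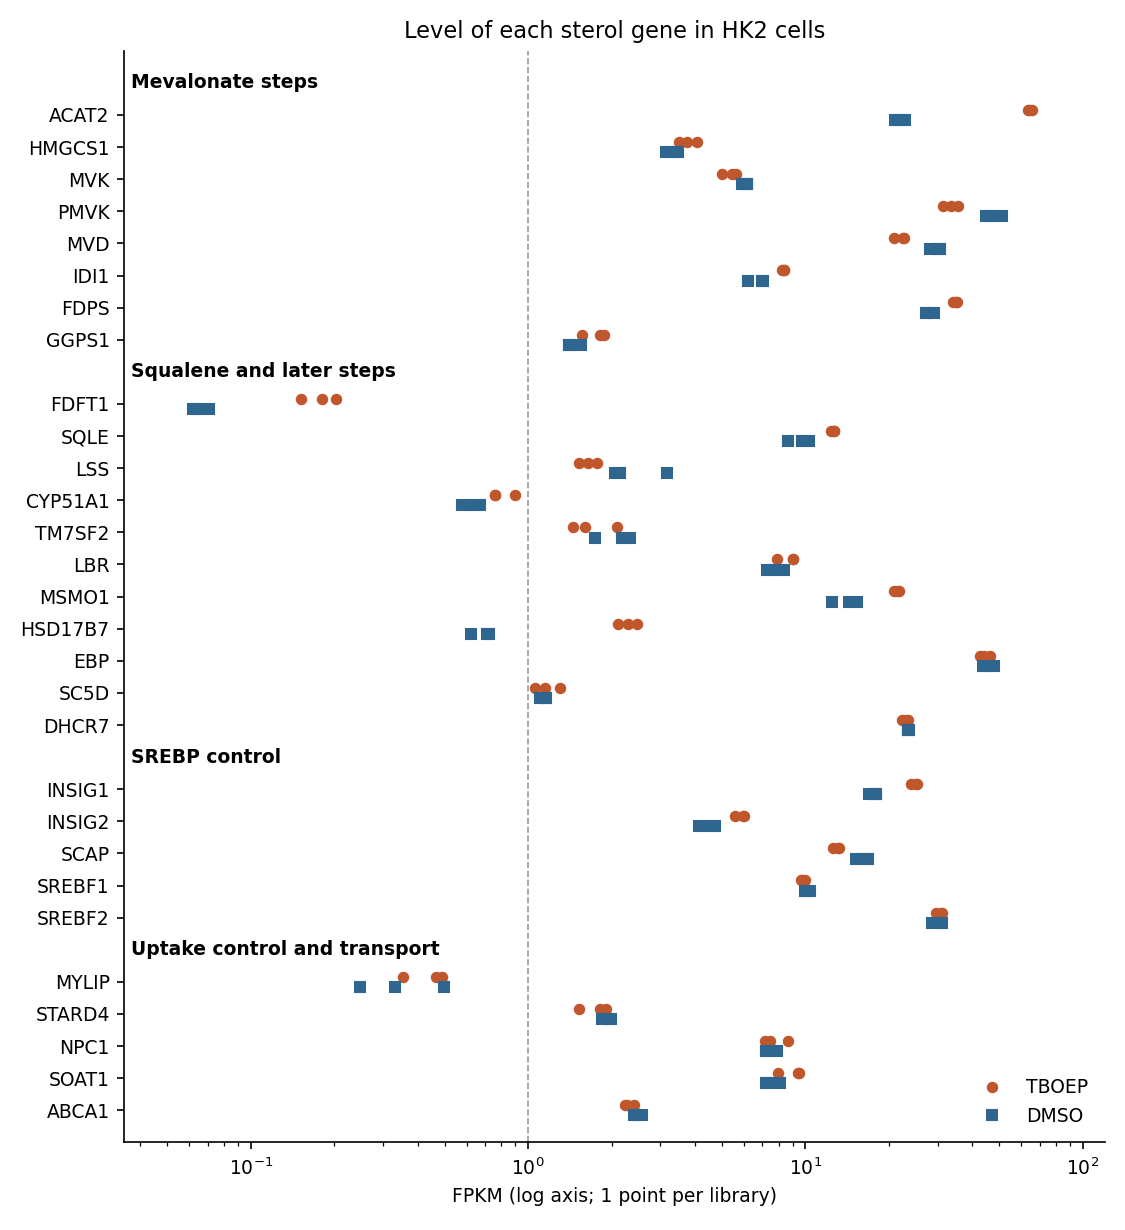
Rows are the 29 sterol genes with values, grouped by role, and the horizontal axis is FPKM on a log scale with 1 point per library (TBOEP circles, DMSO squares). The dashed line marks the filter of 1 FPKM. FDFT1, CYP51A1 and MYLIP lie to its left in all 6 libraries, and the DMSO squares of HSD17B7 lie to its left while its TBOEP circles lie to its right.

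Per length, the genes spanned a wide range of levels within each group. In TBOEP libraries ACAT2 ranked first at a mean of 64.4 FPKM, followed by EBP (44.2 FPKM), FDPS (34.7), PMVK (33.5), SREBF2 (30.5) and INSIG1 (24.8). FDPS and PMVK overlapped there, at 34.0 to 35.1 and 31.4 to 35.5 FPKM. In DMSO libraries PMVK ranked first at 47.5 FPKM, followed by EBP (45.7), SREBF2 (30.1), MVD (29.6), FDPS (28.0) and DHCR7 (23.5), and ACAT2 was seventh at 21.9 FPKM. PMVK and EBP overlapped in DMSO libraries, as did SREBF2, MVD and FDPS. No other neighbours among the 6 genes named for each group overlapped within that group. HSD17B7 ranked 21 of 29 in TBOEP and 26 of 29 in DMSO libraries. The lowest ranks in both groups were those of CYP51A1, MYLIP and FDFT1, which averaged 0.808, 0.437 and 0.179 FPKM in TBOEP and 0.623, 0.358 and 0.0657 FPKM in DMSO. The rank of CYP51A1 is uncertain, because most of its exon bases are shared with another gene.

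GC content moved with the direction of the calls. The 9 genes called higher had transcripts of 36.9% to 55.1% GC (median 46.0%). HSD17B7 (46.9%), which passed the filter through its TBOEP libraries alone, was among them. The 5 called lower had 58.3% to 65.6% (median 59.5%), and the 12 not called had 34.2% to 64.7%. Across these 26 genes the log2 fold change and GC content had a Pearson r of -0.42 and a Spearman rho of -0.57, as a description, since the genes share the same 6 libraries. Over all tested genes the relation had a peak in the middle of the GC range. Of 1100 tested genes at or below 40% GC, 19.3% were called higher and 21.4% lower, with a median log2 fold change of -0.04. Of 1675 genes between 45% and 50% GC, 47.3% were called higher and 10.6% lower, with a median of 0.16. Of 2416 tested genes above 58% GC, 3.31% were called higher and 57.7% lower, with a median of -0.20. Together, GC content and transcript length took up 32.69% of the variation in log2 fold change among tested genes. After a correction for both within each library, 10 of the 14 sterol calls held, that of HSD17B7 included, and those of MVK, MVD, IDI1 and SQLE did not. SREBF1 was newly called higher and EBP newly called lower. This made 8 of the 26 sterol genes higher and 4 lower. The corrected log2 fold changes of the 26 genes still had a Pearson r of -0.28 and a Spearman rho of -0.41 with GC content. Of all tested genes 20.8% were called higher and 23.5% lower after that correction. The corrected log2 fold change of ACAT2 was 1.25 and that of MSMO1 0.52, and PMVK (-0.30) and LSS (-0.33, adjusted p = 0.0466) stayed lower in TBOEP.

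**Figure D4:**
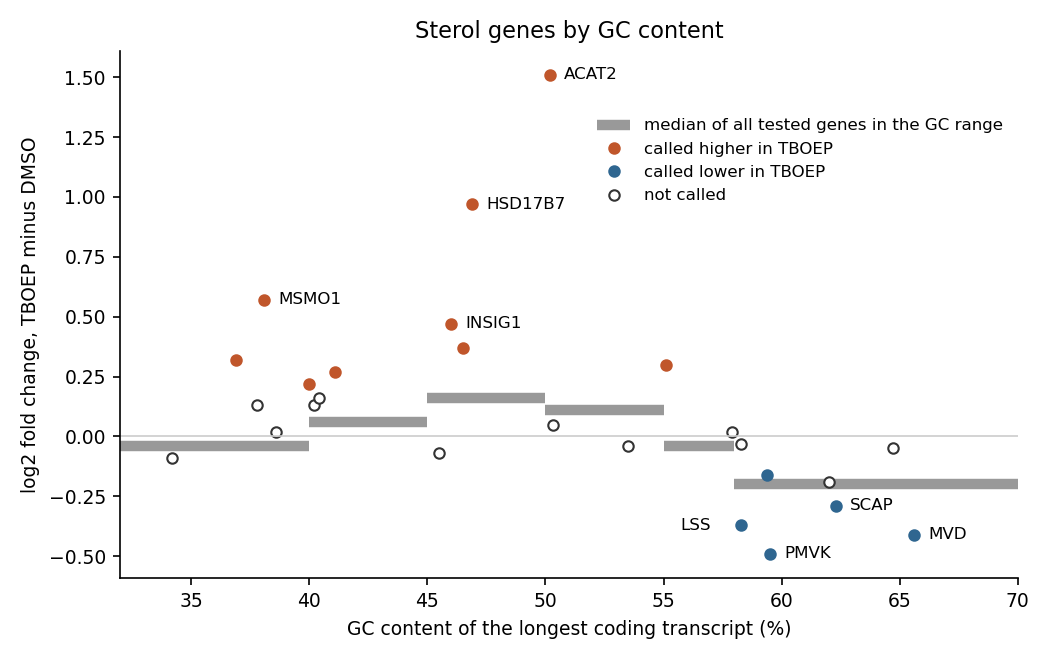
Points are the 26 tested sterol genes, with GC content of the longest coding transcript (%) on the horizontal axis and the log2 fold change, TBOEP minus DMSO, on the vertical axis. Grey bars are the median of all tested genes in each GC range, at -0.04 up to 40% GC, 0.16 between 45% and 50% and -0.20 above 58%, and all 5 genes called lower lie above 58% GC.

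Genes around the pathway were described from 4 further lists of 48 genes, of which 38 were tested, 15 higher (39.5%), 9 lower (23.7%) and 14 not called, against 26.9% of all tested genes in each direction. Their median log2 fold change was 0.04. After correction for GC content and length 8 were called higher and 7 lower, against 20.8% and 23.5% of all tested genes. In sterol transfer and lysosomal handling, 4 of 11 tested genes rose and 4 fell. NPC2, the soluble lysosomal protein that hands cholesterol to NPC1, measured 176, 177 and 174 FPKM in TBOEP and 78.3, 77.5 and 76.6 FPKM in DMSO libraries. NPC2 rose by 1.17 ± 0.03 (SE) in log2 units (limma adjusted p = 2.02e-08) and by 0.92 after the correction, whereas NPC1 did not pass the test. LIPA, the lysosomal acid lipase that frees cholesterol from esters, measured 12.2, 11.9 and 11.2 FPKM in TBOEP and 5.96, 4.8 and 5.78 FPKM in DMSO libraries. LIPA rose by 0.97 ± 0.07 (limma adjusted p = 9.72e-06) and by 0.80 after the correction. STARD3NL, a membrane protein of late endosomes, rose by 0.62 ± 0.05 (limma adjusted p = 1.64e-05) and by 0.40 after the correction.

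Among 11 tested genes of SREBP processing and of sterol-regulated degradation, 6 rose (54.5%), 1 fell (9.09%) and 4 did not pass the test. Over all tested genes 26.9% were called in each direction, and 20.8% higher and 23.5% lower after correction for GC content and length. Part of the 6 higher calls, that of ERG28 among them, ended after that correction. UBE2G2, a ubiquitin-conjugating enzyme of degradation at the endoplasmic reticulum, rose by 0.40 ± 0.06 (SE; limma adjusted p = 3.89e-04), and by 0.16 after correction for GC content and length (adjusted p = 0.0382). ERG28, a scaffold of the sterol demethylation complex, rose by 0.40 ± 0.04 (limma adjusted p = 5.63e-05), but its log2 fold change was 0.08 after correction for GC content and length (adjusted p = 0.102). In the isoprenoid branches 5 of 12 tested genes rose (41.7%) and 2 fell (16.7%). After the correction COQ2 and ICMT alone were called higher, so the share of 41.7% does not hold there. The calls of PDSS1, FNTA (-0.03, limma adjusted p = 0.778) and FNTB (0.05, limma adjusted p = 0.511) ended. COQ2 of ubiquinone synthesis averaged 17.8 ± 0.463 FPKM in TBOEP and 11.2 ± 0.216 FPKM in DMSO (SD, n = 3 each), a log2 fold change of 0.62 and 0.26 after the correction. ICMT, which methylates prenylated proteins, rose by 0.44 (0.27 after the correction), and PDSS1, which builds the ubiquinone side chain, by 0.43, and the PDSS1 call ended after the correction (0.17, adjusted p = 0.2). Of 4 tested genes of oxysterol and LXR biology none rose and 2 fell, NR1H2, which encodes LXR beta, at -0.32, and HSD3B7 of bile acid synthesis at -0.26. Both were at -0.05 after the correction and did not pass the test there (limma adjusted p = 0.36 for NR1H2 and 0.331 for HSD3B7).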

How the data were processed

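RNA-seq was deposited for 6 HK2 libraries, grouped by the treatment label. Per the labels' protocols RNA was extracted with TRIzol, and both VAHTS Universal V6 and TruSeq Stranded Total kits are named, which leaves the use of strand in counting unknown. The submitters' processing notes list Trimmomatic and HISAT2, without versions. Sources used here give no counting tool, genome build or annotation. The deposited table holds 1 value per gene and library without a unit in its header. The authors' values were taken as FPKM because, after scaling each library by 1 factor, the 6 values of a gene are whole multiples of a step. Whole reads came out for 25808 of 25808 genes within 0.001 reads, and implied lengths equalled merged GENCODE 29 exon lengths for 2569 of 11902 genes over 300 reads. Symbols matched 25795 IDs.

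The test was limma 3.58.1 (R 4.3.3), trended and robust, two-sided, on log2(FPKM + 1). Genes needed 1 FPKM in 3 of the 6 libraries, with Benjamini-Hochberg adjustment over 9631 genes and a threshold of 0.05. Recovery and test were tried on simulated data, in which calls on unchanged genes slightly exceeded the threshold's share. The simulated spread was a fixed value, and far fewer genes were changed than were called here, so that share need not hold in these libraries. GC content and length came from the longest coding GENCODE 29 transcript, known for 98.94% of tested genes, and were corrected per library with mgcv 1.9.3. Replicate pairs differed beyond sampling noise (chi-square over degrees of freedom of 7.73 to 9.38), and none was counted as 1 library. Alternatives were no trend, no robust moderation, quantile normalization, median centring, no filter, a 5 FPKM filter, a pseudocount of 0.1, limma-voom on recovered reads (5527 calls, against 5178), the replicate number as a block, the GC and length correction, and each library left out. Windows of 50 bases shared between genes were compared in GENCODE 29 transcripts. The members and lists were chosen with earlier results of these data known. All members are named. Of each other list, up to 3 called genes with the largest change and no overlap between groups are named. A gene that this rule takes is not reported here.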

Additional observations from a re-analysis of the deposited data

How the results depend on the processing

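Gene values were recomputed under the alternatives for the tested sterol genes, TCP1 and the genes taken from the other lists for their large called changes. Of these values 568 kept direction and side of the threshold. With direction kept, 35 lost their call and 9 gained one. The other 22 changed sign, with or without a change of call. Among these, SREBF1 gained a call and TCP1 lost its call with the GC and length correction. All-gene calls numbered 3714 to 5527, against 5178. Sterol genes called higher numbered 7 to 10 (main 9). Those called lower numbered 3 to 7 (main 5). They were 7 with median centring, 4 with the GC and length correction, 3 without the filter and 3 to 5 with 1 library left out. Of the other sterol genes 15 were called higher, against 8 with the GC and length correction and 7 with the correction and the replicate block. With the correction, with or without the block, the sign turned for TM7SF2 (0.07), SC5D (-0.05), DHCR7 (0.02), SREBF1 (0.17), NPC1 (-0.09), ABCA1 (0.02) and TCP1 (-0.07), and the cause was not tested. Median centring turned SC5D (-0.04), SREBF2 (-0.04) and NPC1 (-0.01), and quantile normalization turned NPC1 (-0.01). With 1 library left out SC5D ranged from -0.02 to 0.06, SREBF2 from -0.02 to 0.04 and NPC1 from -0.02 to 0.10. SC5D turned without TBOEP replicate 1, SREBF2 was at 0.00 without TBOEP replicate 1 and turned without DMSO replicate 3, and NPC1 turned without TBOEP replicate 1. Deviations of same-numbered TBOEP and DMSO libraries had correlations of 0.11, -0.03 and 0.01, and those of differently numbered libraries ran from -0.11 to 0.10. With 3 libraries in each group these values cannot show whether the numbers pair the libraries. With the replicate block 4791 genes were called, 8 sterol genes higher and 5 lower, 14 other sterol genes higher and 9 lower, and of the 14 sterol calls SOAT1 was not kept (adjusted p = 0.0657). With a TBOEP library left out HSD17B7 fell under the filter and was not tested, and 10 to 12 of the other 13 calls held. With a DMSO library left out 12 to 13 of 14 held. With the correction and the block UBE2G2 lost its call (0.16, adjusted p = 0.0569). Depth limits FDFT1 and MYLIP, with at most 55 reads.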
